A study of Mus musculus with 4 samples.

Results

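The genes described here were the Wnt ligands, their receptors and the core of the pathway behind them, measured by RNA-seq in primary mouse neural stem/progenitor cells (NSCs) with and without Chd5, a chromatin remodelling protein of neural cells. They were taken from the table by name: every Wnt and Fzd gene with a number, Lrp5 and Lrp6, Lgr4, Lgr5, Rnf43 and Znrf3, Sfrp1 to Sfrp5, Dkk1 to Dkk3, Dvl1 to Dvl3, Axin1, Axin2, Apc, Gsk3b, Ctnnb1, Lef1, Tcf7, Tcf7l1 and Tcf7l2. This gave 50 of the 18169 rows, made up of 15 ligands, 10 frizzled receptors, 2 Lrp co-receptors, 4 Lgr receptors or receptor ubiquitin ligases, 7 secreted antagonists, 8 cytoplasmic transducers and 4 Tcf/Lef factors. Wnt1, Wnt3a, Wnt10a, Wnt16 and a row named Sfrp3 were not analysed here. Sfrp3 is also called Frzb, and the row of that name is counted among the other pathway genes below.

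There were 2 cultures of +/+ NSCs and 2 of Chd5-/- NSCs, all of the C57BL/6 strain, each set up from tissue around the ventricles of 1 newborn mouse and grown in medium with epidermal growth factor and fibroblast growth factor 2. Chd5-/- stands for loss of Chd5 in the whole animal, so the cells were without it before they were put in culture. The protocol gives postnatal day 1 for all animals, whereas the age entries of the samples run from day 1 to day 4, and both Chd5-/- entries (days 3 and 4) are later than both +/+ entries (days 1 and 2). If those entries hold, age and genotype cannot be told apart. The values are TPM (a transcript abundance for which reads are divided by transcript length and each sample is set to the same total), so levels of different genes can be compared, but the sequencing depth of each sample is unknown. Precision therefore rests on 2 samples per genotype.

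Chd5 itself was low throughout, with 0.39 and 0.37 TPM in +/+ cultures compared with 0.06 and 0.04 TPM in Chd5-/- cultures, and did not overlap. All 8 neural stem/progenitor markers examined (Nes, Sox2, Pax6, Vim, Slc1a3, Fabp7, Prom1 and Egfr) were above 1 TPM on average, with a summed level of 8126 to 9798 TPM in +/+ and 3950 to 6821 TPM in Chd5-/- samples. The sum was carried by Fabp7, Slc1a3 and Vim. Nes, Pax6 and Prom1 overlapped between genotypes. Prom1 was at 45.3 TPM in Chd5-/- replicate 1 and at 0.99 to 4.15 TPM in the other samples. Egfr was higher in Chd5-/- samples (147 and 324 TPM) than in +/+ samples (139 and 129 TPM). The summed levels of some regional and other markers differed between genotypes as well. The 4 dorsal forebrain markers with a row summed to 17.7 to 67.0 TPM in +/+ and 3.88 to 6.93 TPM in Chd5-/- samples, with Tbr1 and Eomes at or near 0 throughout. Of the 2 with a mean of at least 1 TPM, 1 was lower in Chd5-/- samples without overlap and 1 overlapped between genotypes. Both also differed widely between the replicates of each genotype. The 6 midbrain and hindbrain markers summed to 0.96 to 2.18 TPM and 7.03 to 12.8 TPM, with En1 and Pax7 at or near 0. The latter difference came from Pax3 (0.07 and 0 TPM in +/+, 2.29 and 11.2 TPM in Chd5-/- samples) and from Hoxa2 in Chd5-/- replicate 1 (3.16 TPM), while En2 and Gbx2 overlapped. The 7 mesenchymal markers summed to 0.02 to 0.35 TPM in +/+ and 5.33 to 15.2 TPM in Chd5-/- samples, with Col1a1 at 0 in 3 samples, and the 4 choroid plexus markers to 0.18 to 0.34 TPM and 0.98 to 19.4 TPM. Of these, Col3a1, Dcn and Folr1 were high in Chd5-/- replicate 1 alone (7.41, 4.17 and 18.5 TPM), and Twist1 was high in both Chd5-/- samples (2.92 and 5.16 TPM). Their part in the results below was not tested.

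Wnt proteins are secreted, lipid-modified signals that neighbouring cells read through frizzled receptors. In the canonical branch, frizzled and Lrp5 or Lrp6 recruit dishevelled (Dvl) proteins, which disable a destruction complex built on Axin and Apc with the kinase Gsk3b. β-catenin (Ctnnb1) then builds up and joins Tcf/Lef factors at target genes. Other branches, for which Wnt5a is the usual example, run through frizzled and other receptors to the cytoskeleton without β-catenin. In the brain, Wnt signals are known for patterning the dorsal forebrain and the midbrain and for the balance between self-renewal and differentiation of NSCs.

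Every row with a mean of at least 1 TPM was tested for a genotype difference with limma, a linear model that shares the estimate of spread across rows, on log2(TPM + 1). Of the 50 genes, 35 passed this minimum. The 15 below it were 10 ligands, the antagonists Sfrp1, Sfrp5, Dkk1 and Dkk2, and Lef1. All fold changes below are differences of mean log2(TPM + 1), Chd5-/- minus +/+, and understate the change of low genes. The p-values weigh each difference against a spread between these cultures that is estimated in part from other rows.

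No Wnt pathway gene passed an adjusted p of 0.05, against 7 of the 12576 rows tested (0.0557%). The smallest adjusted p was 0.120, for Dkk3. At an unadjusted p under 0.05, 10 of the 35 genes tested were higher in Chd5-/- samples (28.6%, against 21.9% of all rows) and 1 was lower (2.86%, against 2.27%). Without +/+ replicate 1 there were 5 higher and 0 lower, and without +/+ replicate 2 there were 4 and 1. Without Chd5-/- replicate 1 there were 13 and 4, and without Chd5-/- replicate 2 there were 11 and 2. The 10 were Wnt5a, Wnt7b, Fzd10, Lrp5, Rnf43, Dkk3, Axin1 and all 3 Dvl genes, and the lower was Fzd1. Both Chd5-/- samples lay above both +/+ samples in 18 genes (51.4%, against 46.3% of all rows) and below them in 4 (11.4%, against 13.0%), namely Fzd1, Sfrp2, Lgr4 and Fzd5. The difference was 2-fold or more upwards in 11 genes (31.4%, against 18.5%) and downwards in 2 (5.71%, against 1.61%). The median difference over the 35 genes was 0.34, as it was over all rows tested (0.34). The shares of genes without overlap lay near those of the whole table, in which higher values in Chd5-/- samples were common.

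**Figure D1:**
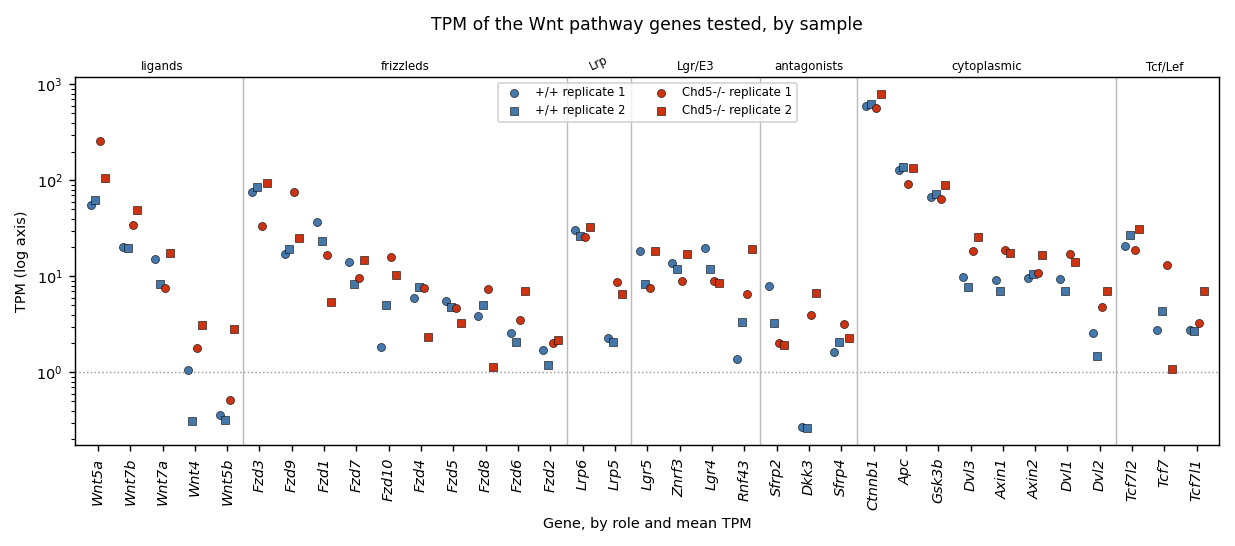
TPM of each of the 35 Wnt pathway genes tested (vertical log axis), grouped by role and ordered by mean TPM within a role, with 1 point per sample (blue +/+, red Chd5-/-, circles replicate 1, squares replicate 2) and a dotted line at 1 TPM. Ctnnb1 stands highest in all 4 samples, and the Chd5-/- circles and squares lie far apart in genes such as Tcf7, Fzd8, Fzd9 and Fzd1.

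The promoters of the Dvl genes, which were higher together, are shown beside those of the 4 genes whose Chd5-/- values lay below both +/+ values. The GC content of the transcripts went with the direction of many differences (given below). That of the start sites is a separate measure and can be read here. The sequences are from RefSeq (GRCm38.p6), which matched 34 of the 50 genes. They hold 250 bases before and 50 after the RefSeq start of the gene on its own strand. The Fzd1 window lies wholly before the start in the gene coordinates given below, which are from GENCODE. Capitals mark CpG dinucleotides, 5′ to 3′.
Dvl1: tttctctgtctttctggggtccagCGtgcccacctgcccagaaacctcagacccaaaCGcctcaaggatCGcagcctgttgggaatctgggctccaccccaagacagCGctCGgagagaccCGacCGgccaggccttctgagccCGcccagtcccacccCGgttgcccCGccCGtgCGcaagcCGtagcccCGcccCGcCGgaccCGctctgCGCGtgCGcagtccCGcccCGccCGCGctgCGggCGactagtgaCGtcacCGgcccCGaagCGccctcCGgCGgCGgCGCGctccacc
Dvl2: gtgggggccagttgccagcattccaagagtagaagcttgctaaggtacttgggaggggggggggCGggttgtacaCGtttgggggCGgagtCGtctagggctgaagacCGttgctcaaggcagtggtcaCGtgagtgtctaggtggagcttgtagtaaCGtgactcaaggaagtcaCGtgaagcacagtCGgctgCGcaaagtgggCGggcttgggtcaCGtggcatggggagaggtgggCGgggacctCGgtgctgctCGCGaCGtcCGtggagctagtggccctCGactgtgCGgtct
Dvl3: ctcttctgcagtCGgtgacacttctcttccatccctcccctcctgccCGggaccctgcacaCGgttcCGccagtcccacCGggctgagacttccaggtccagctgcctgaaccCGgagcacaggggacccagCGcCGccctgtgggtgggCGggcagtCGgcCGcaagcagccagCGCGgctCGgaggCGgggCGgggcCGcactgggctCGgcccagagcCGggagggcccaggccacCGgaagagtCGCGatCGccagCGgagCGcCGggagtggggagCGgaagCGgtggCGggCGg
Fzd1: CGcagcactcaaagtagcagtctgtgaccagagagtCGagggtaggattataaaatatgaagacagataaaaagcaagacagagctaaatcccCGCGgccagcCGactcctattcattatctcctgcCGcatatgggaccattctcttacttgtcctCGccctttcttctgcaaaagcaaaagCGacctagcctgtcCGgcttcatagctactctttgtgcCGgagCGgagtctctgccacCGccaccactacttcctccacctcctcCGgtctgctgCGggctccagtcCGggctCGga
Sfrp2: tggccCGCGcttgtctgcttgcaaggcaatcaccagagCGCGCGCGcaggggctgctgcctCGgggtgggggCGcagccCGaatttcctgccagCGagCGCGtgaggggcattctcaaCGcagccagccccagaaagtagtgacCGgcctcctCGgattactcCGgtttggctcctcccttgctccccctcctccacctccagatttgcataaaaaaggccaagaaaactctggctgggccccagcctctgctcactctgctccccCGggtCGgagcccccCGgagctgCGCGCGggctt
Lgr4: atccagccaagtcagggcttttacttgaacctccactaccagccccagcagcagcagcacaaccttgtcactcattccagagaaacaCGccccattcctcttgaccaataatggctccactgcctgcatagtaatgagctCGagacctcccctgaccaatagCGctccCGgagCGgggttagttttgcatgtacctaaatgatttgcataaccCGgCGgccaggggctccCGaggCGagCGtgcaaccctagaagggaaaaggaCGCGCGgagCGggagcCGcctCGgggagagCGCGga
Fzd5: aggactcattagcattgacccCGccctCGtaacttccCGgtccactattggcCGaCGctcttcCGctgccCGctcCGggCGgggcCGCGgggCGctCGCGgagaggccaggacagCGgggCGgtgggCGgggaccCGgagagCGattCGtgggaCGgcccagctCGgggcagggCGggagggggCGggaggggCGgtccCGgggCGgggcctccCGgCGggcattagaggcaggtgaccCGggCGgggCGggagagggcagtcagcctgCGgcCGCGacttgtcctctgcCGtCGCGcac
The Dvl1 window (chr4:155847152-155847451, + strand) held 35 CpG dinucleotides, that of Dvl2 (chr11:70000342-70000641, + strand) held 20 and that of Dvl3 (chr16:20516736-20517035, + strand) held 30. Of the 4 lower genes, the Fzd1 window (chr5:4758167-4758466, - strand) held 16, that of Sfrp2 (chr3:83766071-83766370, + strand) 22, that of Lgr4 (chr2:109917397-109917696, + strand) 18 and that of Fzd5 (chr1:64737701-64738000, - strand) 38. The counts of the Dvl genes and of the 4 lower genes thus overlap. Both groups were chosen by their values in these samples, so this describes them and tests nothing. Of the other genes higher at an unadjusted limma p under 0.05, Rnf43 had 10 CpG in its first window and Fzd10 had 45. Wnt5a, Wnt7b, Dkk3, Lrp5 and Axin1 had no window. The first window of the 34 genes had a median of 30.5 CpG and 70.6% GC, compared with 7 and 52.7% over all 32851 windows. The core of the site bound by Tcf/Lef factors, searched as CTTTGAA or CTTTGAT on both strands, occurred in the first window of 2 of the 34 genes (5.88%), Wnt11 and Dkk1, and in 8.65% of all windows. Both are below the minimum for testing, and none of the 7 windows printed holds the core.

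Of the ligands, Wnt5a, Wnt7b and Wnt7a carried nearly all of the summed level in every sample. Wnt5a, the main ligand of the branches without β-catenin (chr14:28504750-28527448, + strand), stood at 55.4 and 61.8 TPM in +/+ samples and at 260 and 106 TPM in Chd5-/- samples. Both Chd5-/- values lay above both +/+ values, and the first Chd5-/- value was far above the second. The difference was 1.49 (SE 0.45), a 3.12-fold higher mean TPM, with an unadjusted limma p of 0.0199 and an adjusted p of 0.152. It ranged from 0.84 to 2.13 when 1 sample was left out. Wnt7b, a ligand that acts through β-catenin in the brain's vessels and progenitors, was at 20.2 and 19.8 TPM and at 34.6 and 49.2 TPM. Its +/+ values were nearly equal and its Chd5-/- values both higher, with a difference of 1.01 (SE 0.27, adjusted p = 0.132). Wnt7a, its close relative, was at 15.1 and 8.40 TPM and at 7.48 and 17.7 TPM. Here the Chd5-/- samples fell on either side of the +/+ pair, and the difference was 0.04 with a 95% interval from -1.22 to 1.29.

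The order Wnt5a, Wnt7b, Wnt7a held in all 4 samples, and the values of neighbours in that order did not overlap within a genotype. Wnt4, a ligand used in several branches, was at 1.06 and 0.31 TPM in +/+ and at 1.80 and 3.11 TPM in Chd5-/- samples, low but without overlap (difference 1.05, SE 0.43, adjusted p = 0.217). Wnt5b, the relative of Wnt5a, was at 0.36 and 0.32 TPM and at 0.51 and 2.82 TPM, so its difference of 0.84 rested on the second Chd5-/- sample. The other 10 ligands, Wnt2, Wnt2b, Wnt3, Wnt6, Wnt8a, Wnt8b, Wnt9a, Wnt9b, Wnt10b and Wnt11, were between 0 and 0.51 TPM in every sample. Wnt11 was listed at 0 in both +/+ samples and at 0.20 TPM in both Chd5-/- samples. Summed over the 15 ligands, the level was 92.6 and 91.0 TPM in +/+ samples and 306 and 180 TPM in Chd5-/- samples. Wnt5a made up 59.8% and 67.9% of that sum in +/+ samples, 84.9% in Chd5-/- replicate 1 and 58.9% in Chd5-/- replicate 2. In cultures of mixed cells, fewer cells of a type and less RNA per cell cannot be told apart, and this holds for each level given here.

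**Figure D2:**
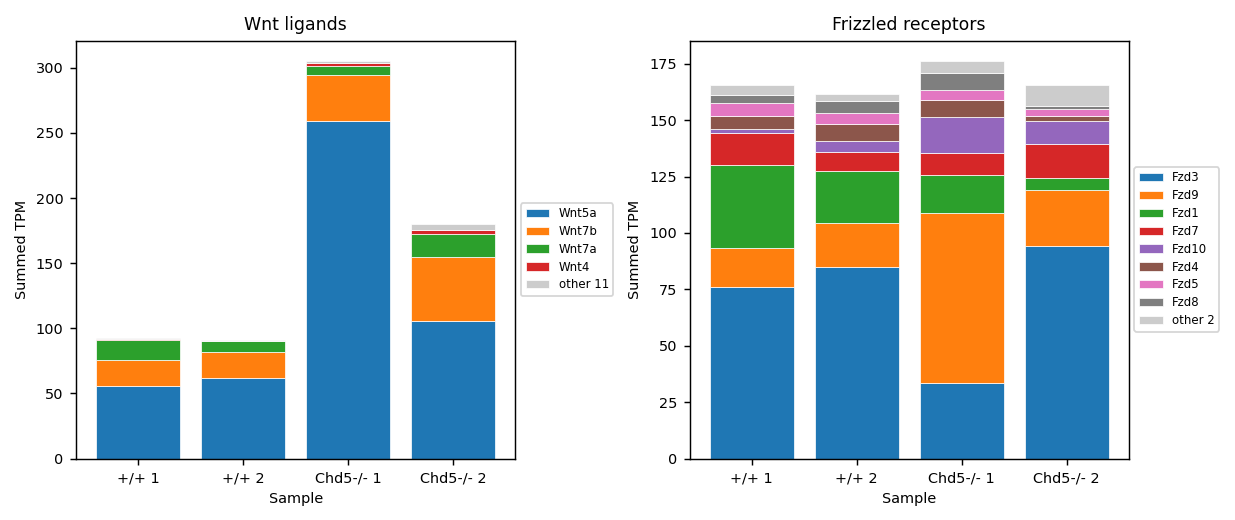
Summed TPM (vertical axis, from 0) of the 15 Wnt ligands (left) and the 10 frizzled receptors (right) in each of the 4 samples, stacked by gene with the lowest genes pooled in grey. The ligand stacks are taller in both Chd5-/- samples (306 and 180 TPM, compared with 92.6 and 91.0), whereas the frizzled stacks stand at similar heights (162 to 176 TPM) with different make-up.

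The frizzled receptors, which bind the ligands at the cell surface, differed in make-up more than in total. Their 10 genes summed to 166 and 162 TPM in +/+ samples and to 176 and 165 TPM in Chd5-/- samples, and all 10 passed the minimum. Fzd3, known for its role in axon guidance, led in +/+ samples with 76.0 and 85.1 TPM. In Chd5-/- samples it was at 33.3 and 94.1 TPM, below and above the +/+ pair, so the difference of -0.51 (95% interval -1.78 to 0.76) did not exceed the spread. Fzd9 was at 17.2 and 19.1 TPM in +/+ samples and at 75.3 and 24.9 TPM in Chd5-/- samples. Both Chd5-/- values were higher, but the first by far the more, and the difference of 1.22 (SE 0.53) had an adjusted p of 0.240. Without Chd5-/- replicate 1 it was 0.44. The share of Fzd3 in the frizzled sum was 45.9% and 52.7% in +/+ samples, 18.9% in Chd5-/- replicate 1 and 56.9% in Chd5-/- replicate 2. For Fzd9 the shares were 10.4%, 11.8%, 42.7% and 15.1% in the same order, so Fzd9 took the leading place in Chd5-/- replicate 1 only.

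Fzd1, a receptor of the β-catenin branch (chr5:4753839-4758035, - strand), was the gene with the largest downward difference among those tested. It was at 36.7 and 23.3 TPM in +/+ samples and at 16.9 and 5.39 TPM in Chd5-/- samples, all lower than in +/+. The difference was -1.50 (SE 0.55, adjusted p = 0.188), and it ran from -2.24 to -0.76 when 1 sample was left out. Its share of the frizzled sum was 22.2% and 14.4% in +/+ samples and 9.57% and 3.26% in Chd5-/- samples. Fzd10 went the other way, from 1.84 and 5.08 TPM to 16.02 and 10.2 TPM. Neither Chd5-/- value reached down to the +/+ pair, and the difference was 1.73 (SE 0.47, adjusted p = 0.135). Fzd5 was at 5.48 and 4.79 TPM and at 4.64 and 3.29 TPM, a difference of -0.32 without overlap but with the nearest values almost equal. Fzd6 was at 2.56 and 2.06 TPM and at 3.53 and 7.01 TPM, and Fzd2 at 1.71 and 1.19 TPM and at 2.00 and 2.19 TPM, both higher in Chd5-/- samples without overlap. Fzd7, Fzd4 and Fzd8 overlapped between genotypes, at 2.33 to 14.8 TPM for the first pair of genes and 1.15 to 7.30 TPM for Fzd8. Fzd8 was at 3.86 and 4.99 TPM in +/+ samples, and its highest and lowest values were those of the Chd5-/- samples.

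The Lrp co-receptors pass the signal on with frizzled to the β-catenin branch. Lrp6, the more abundant, was at 30.8 and 26.5 TPM in +/+ samples and at 25.8 and 33.0 TPM in Chd5-/- samples. The genotypes overlapped and the difference was 0.03 (95% interval -0.61 to 0.67). Lrp5 was at 2.30 and 2.06 TPM in +/+ samples and at 8.71 and 6.57 TPM in Chd5-/- samples. Each pair was close together and the pairs far apart, with a difference of 1.43 (SE 0.31, adjusted p = 0.121) and a range of 1.25 to 1.61 when 1 sample was left out. Lrp5 nevertheless remained below Lrp6 in every sample.

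Lgr4 and Lgr5 bind R-spondins, which protect frizzled receptors, whereas Rnf43 and Znrf3 are ubiquitin ligases that remove frizzled from the surface. Lgr5, a marker of several adult stem cells, was at 18.4 and 8.32 TPM in +/+ samples and at 7.65 and 18.4 TPM in Chd5-/- samples. Each genotype thus had a high and a low sample, and the difference was -0.05 (95% interval -1.44 to 1.33). Lgr4 was at 19.6 and 12.04 TPM in +/+ samples and at 8.89 and 8.58 TPM in Chd5-/- samples, lower in both but with an adjusted p of 0.232 for a difference of -0.75 (SE 0.32). Znrf3 was at 13.7 and 11.9 TPM and at 8.97 and 17.2 TPM, on both sides of the +/+ values. Rnf43, itself a target of the pathway in the intestine, was at 1.38 and 3.33 TPM in +/+ samples and at 6.57 and 19.1 TPM in Chd5-/- samples. Its Chd5-/- values were both higher, with a difference of 1.94 (SE 0.58, adjusted p = 0.151). R-spondin genes themselves were at most 0.49 TPM in any sample.

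The secreted antagonists act outside the cell, Sfrp proteins by binding ligands and Dkk1 and Dkk2 by binding Lrp5 and Lrp6. Dkk3, a more distant relative of these (chr7:112116017-112159057, - strand), was at 0.27 and 0.26 TPM in +/+ samples and at 3.99 and 6.63 TPM in Chd5-/- samples. It had the largest difference of the 35 genes, 2.29 (SE 0.38, adjusted p = 0.120), and a 20.0-fold higher mean TPM. Leaving out 1 sample gave 1.98 to 2.59. Sfrp2 was at 7.92 and 3.26 TPM in +/+ samples and at 2.01 and 1.93 TPM in Chd5-/- samples, lower in both (difference -1.05, SE 0.45, adjusted p = 0.229). Sfrp4 was at 1.61 and 2.08 TPM and at 3.21 and 2.26 TPM, a small upward difference of 0.39 (SE 0.34). Sfrp5 was listed at 0 in both +/+ samples and at 1.26 and 0.06 TPM in Chd5-/- samples. Sfrp1, Dkk1 and Dkk2 were at most 0.17 TPM in any sample. The summed mesenchymal and choroid plexus markers given above were also near 0 in +/+ samples. In Chd5-/- samples these sums were higher in replicate 1 than in replicate 2, as Wnt5a was and Dkk3 was not. Twist1, of the mesenchymal list, was higher in replicate 2, as Dkk3 was. The part of these markers in these values was not tested.

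Among the genes for proteins that act inside the cell, transcript levels of all 3 Dvl genes and Axin1 were higher in Chd5-/- samples, while those of Ctnnb1, Apc and Gsk3b overlapped between genotypes. Dvl3 was at 9.89 and 7.66 TPM in +/+ samples and at 18.6 and 25.7 TPM in Chd5-/- samples (difference 1.23, SE 0.30, adjusted p = 0.126). Dvl1 was at 9.30 and 7.04 TPM and at 17.2 and 14.1 TPM (difference 0.87, SE 0.29, adjusted p = 0.169). Dvl2 was the lowest, at 2.57 and 1.47 TPM and at 4.76 and 7.05 TPM (difference 1.197, SE 0.37, adjusted p = 0.156). None of the 3 overlapped between genotypes. Axin1, the scaffold of the destruction complex, was at 9.24 and 7.06 TPM in +/+ samples and at 18.9 and 17.3 TPM in Chd5-/- samples, again without overlap (difference 1.07, SE 0.27, adjusted p = 0.129). Axin2, both a scaffold and a widely used readout of the β-catenin branch, was at 9.66 and 10.6 TPM and at 10.8 and 16.7 TPM. The first Chd5-/- value was close to the +/+ values, and the difference was 0.38 (95% interval -0.41 to 1.17, adjusted p = 0.488).

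Ctnnb1, by far the most abundant gene of the set, was at 590 and 633 TPM in +/+ samples and at 564 and 803 TPM in Chd5-/- samples. Its difference of 0.14 had a 95% interval from -0.56 to 0.84. Apc was at 128 and 138 TPM and at 91.4 and 135 TPM (difference -0.26, 95% interval -0.94 to 0.42), and Gsk3b was at 66.9 and 71.3 TPM and at 63.6 and 89.5 TPM (difference 0.13, 95% interval -0.52 to 0.77). In all 3 the Chd5-/- samples overlapped with the +/+ samples.

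The Tcf/Lef factors carry the signal to DNA. Tcf7l2, the most abundant, was at 20.8 and 27.2 TPM in +/+ samples and at 18.9 and 31.5 TPM in Chd5-/- samples, outside the +/+ pair on both sides (difference 0.04). Tcf7l1, mostly a repressor, was at 2.74 and 2.68 TPM and at 3.25 and 6.98 TPM, higher in both Chd5-/- samples (difference 0.65, SE 0.41, adjusted p = 0.375). Tcf7 was at 2.79 and 4.39 TPM in +/+ samples and at 13.1 and 1.09 TPM in Chd5-/- samples, the widest gap between replicates of the 35 genes, and its 95% interval ran from -2.06 to 2.59. Lef1 was at 0.06 and 0 TPM and at 1.04 and 0.14 TPM.

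**Figure D3:**
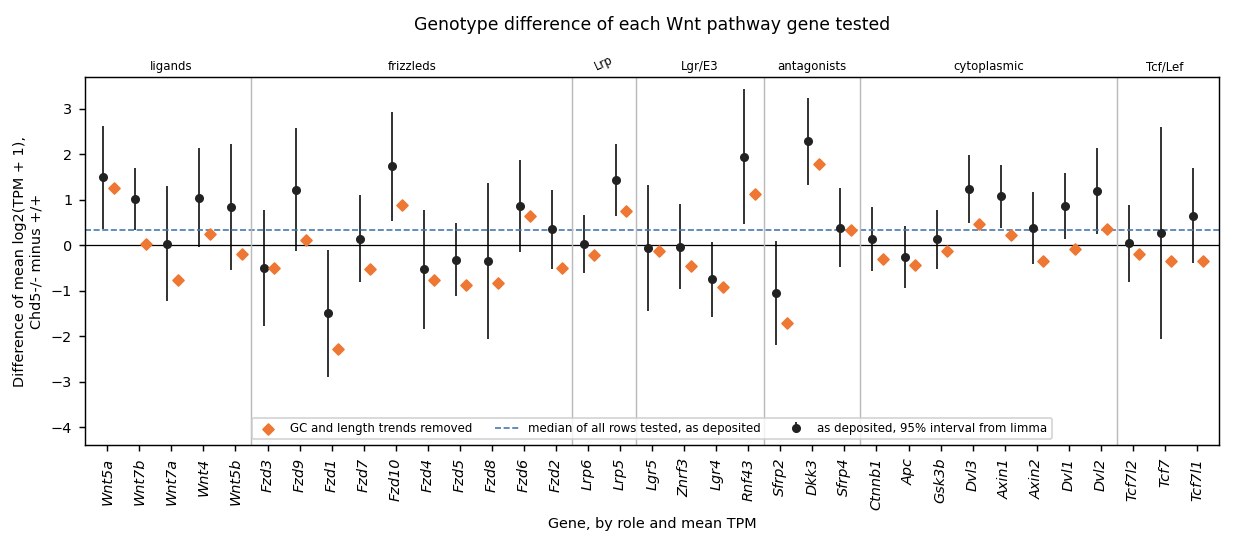
Difference of mean log2(TPM + 1), Chd5-/- minus +/+ (vertical axis), for the 35 Wnt pathway genes tested, by role. Black points are values as deposited with the 95% interval from limma, orange diamonds the values after trends with GC content and transcript length were removed, and the dashed line the median of all rows tested (0.34). Dkk3 lies highest at 2.29 and Fzd1 lowest at -1.50, and most diamonds lie below their black points.

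The 2 Chd5-/- cultures differed from each other more than the 2 +/+ cultures did. Of the 35 genes, 11 (31.4%) differed by 1 or more in log2(TPM + 1) between the Chd5-/- samples, compared with 16.9% of all rows, and 3 (8.57%) between the +/+ samples, compared with 4.05%. The median absolute difference was 0.58 between the Chd5-/- samples and 0.30 between the +/+ samples. For all rows it was 0.40 and 0.25. The gap, replicate 1 minus replicate 2, was 2.75 for Tcf7, 1.95 for Fzd8, 1.56 for Fzd9, 1.48 for Fzd1 and 1.29 for Wnt5a. It was -1.47 for Fzd3, -1.41 for Rnf43, -1.34 for Wnt5b and -1.17 for Lgr5. In 10 genes (28.6%, against 17.1% of all rows) the Chd5-/- samples lay on opposite sides of both +/+ samples. These were Wnt7a, Fzd3, Fzd8, Lrp6, Lgr5, Znrf3, Ctnnb1, Gsk3b, Tcf7 and Tcf7l2. The smallest two-sided p that an exact permutation of 2 samples against 2 can give is 0.333.

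The direction of many differences went with the base composition of the transcript. The 35 genes had a median GC content of 52.9% in their longest GENCODE transcript, compared with 49.2% over all rows tested. Among the 24 genes above that median of all rows, 9 were higher and 1 lower at an unadjusted p under 0.05, with a median difference of 0.75. All rows above it had 38.6% higher, 0.463% lower and a median of 0.72. Among the 11 genes at or below it, 1 (Wnt5a, 46.7% GC) was higher and 0 lower, with a median of 0.03, where all rows had 5.75% higher, 3.90% lower and a median of 0.02. Over all rows, the median difference ran from -0.20 in the lowest of 10 equally filled bins of GC content to 1.04 in the highest.

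After trends with GC content and transcript length were removed from each sample, 1 of the 35 genes was higher at an unadjusted p under 0.05 (2.86%, against 5.11% of all rows) and 4 were lower (11.4%, against 6.42%). The higher was Dkk3, with a difference of 1.79, and the lower were Fzd1 at -2.29, Sfrp2 at -1.72, Lgr4 at -0.92 and Fzd5 at -0.87. The smallest adjusted p among the 35 was then 0.382. Wnt5a stood at 1.26 with an unadjusted limma p of 0.0562, Rnf43 at 1.13, Fzd10 at 0.87 and Lrp5 at 0.75. Wnt7b came close to 0 at 0.02, as did Dvl1 at -0.09, which thereby turned its sign. Dvl3 was at 0.47 and Dvl2 at 0.35. Axin1 was at 0.22 and Axin2 at -0.34. Other scalings moved the balance of directions as well. Median-of-ratios scaling shifted the median of all rows from 0.34 to 0.01 and gave 7 higher and 3 lower genes (20.0% and 8.57%), where 1508 and 1311 (10.4%) of the 12576 rows were higher and lower. Quantile normalization gave 6 and 4 (17.1% and 11.4%), where all rows had 8.77% and 8.14%. Rescaling without the 20 most abundant rows gave 9 and 3 (25.7% and 8.57%), where all rows had 14.8% and 6.52%. The deposited values gave 10 and 1. The sign of the difference stayed positive for all 10 of the higher genes under each of these 3 scalings. It stayed negative for Fzd1, Sfrp2, Lgr4 and Fzd5. Dkk3, Lrp5, Dvl3, Axin1, Fzd1, Sfrp2 and Lgr4 had an unadjusted limma p under 0.05 under all 3. Wnt5a and Wnt7b missed it with median-of-ratios scaling, Rnf43, Fzd10 and Dvl2 with quantile normalization, and Dvl1 under all 3. Fzd5 passed it with quantile normalization only.

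**Figure D4:**
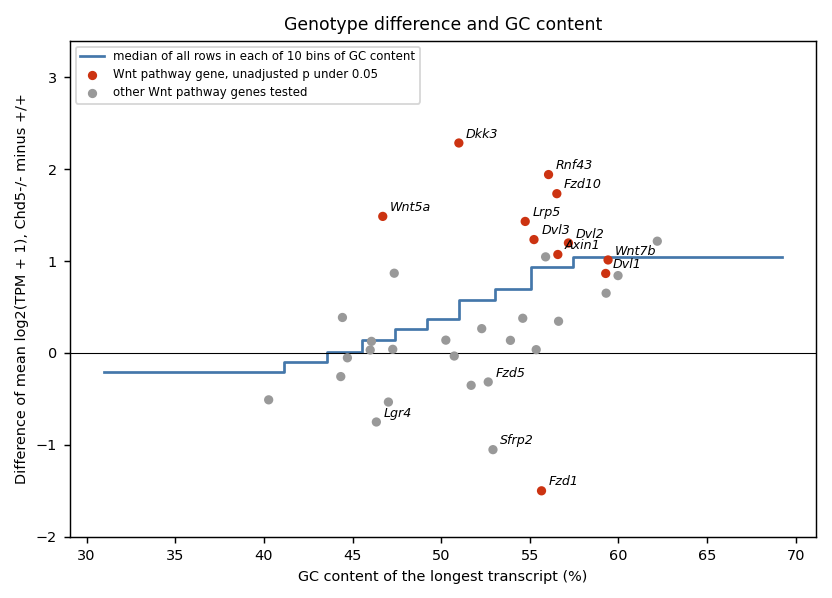
Difference of mean log2(TPM + 1), Chd5-/- minus +/+ (vertical axis), against the GC content of the longest transcript in % (horizontal axis) for the 35 Wnt pathway genes tested, red where the unadjusted p was under 0.05, with the median of all rows in each of 10 bins of GC content as a blue step line. The step line climbs from -0.20 to 1.04, Dvl1, Dvl2, Axin1 and Wnt7b lie near it, and Dkk3 and Wnt5a lie above it and Fzd1, Sfrp2, Lgr4 and Fzd5 below it.

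The rest of the pathway was read from a list of 113 names, of which 108 had a row, with Kremen1 and Apcdd1 in 2 rows each, and 85 rows were tested. Of these, 17 were higher (20.0%, against 21.9% of all rows) and 4 lower (4.71%, against 2.27%) at an unadjusted p under 0.05, 0 passed an adjusted p of 0.05, and the median difference was 0.33. After removal of the GC and length trends, 1 was higher (1.18%, against 5.11% of all rows) and 6 were lower (7.06%, against 6.42%). The counts by list below are at an unadjusted p under 0.05 and are to be read against the same 21.9% and 2.27% of all rows.

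Among 14 tested rows for Wnt secretion and extracellular modifiers, 2 were higher (14.3%, against 21.9%) and 2 lower (14.3%, against 2.27%). Wls, the carrier that brings Wnt proteins to the cell surface, was at 163 and 244 TPM in +/+ samples and at 422 and 396 TPM in Chd5-/- samples, without overlap (difference 1.03, adjusted p = 0.133). It was the gene of this list left higher after removal of the trends, at 1.09. Wif1, which binds ligands, was at 1.53 and 4.88 TPM and at 0.10 and 0.88 TPM, and the glypican Gpc6 at 30.1 and 24.6 TPM and at 13.7 and 11.4 TPM, both lower in Chd5-/- samples, with differences of -1.42 (adjusted p = 0.206) and -1.06 (adjusted p = 0.126). Of the 4 tested co-receptors, 1 was higher (against 21.9%) and 0 lower (against 2.27%). This was Ptk7, with 4.14 and 3.01 TPM in +/+ samples and 10.6 and 9.12 TPM in Chd5-/- samples. Ryk, a receptor for Wnt5a, stayed between 67.8 and 76.5 TPM in all samples, with a difference of 0.05 (SE 0.21).

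The 38 tested genes of the destruction complex and its nuclear partners had 11 higher (28.9%, against 21.9% of all rows) and 0 lower (against 2.27%). The co-repressor Aes had the smallest p, at 55.4 and 58.9 TPM in +/+ samples and 133 and 134 TPM in Chd5-/- samples (difference 1.21, adjusted p = 0.120). The casein kinase genes Csnk1g2 and Csnk1e had differences of 1.46 and 1.01, and Bcl9l, a partner of β-catenin, had 1.40. Their values after removal of the trends were 0.27 for Aes, 0.58 for Csnk1g2, 0.16 for Csnk1e and 0.45 for Bcl9l. Of 17 planar cell polarity genes tested, 3 were higher (17.6%, against 21.9%) and 0 lower (against 2.27%), with the largest difference of the 3 in Scrib (1.26, or 0.24 after removal).

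Of 12 tested genes often used as targets of the pathway, 0 were higher (against 21.9% of all rows) and 2 were lower (16.7%, against 2.27%). This list leaves out Axin2 and Rnf43, named above as a readout and a target, which are counted among the Wnt pathway genes. Both were higher in Chd5-/- samples without overlap, with differences of 0.38 and 1.94 (adjusted p = 0.488 and 0.151). After removal of the trends these were -0.34 and 1.13. Id2 was at 159 and 290 TPM in +/+ samples and at 46.3 and 118 TPM in Chd5-/- samples (difference -1.52, adjusted p = 0.177). Jag1, a Notch ligand, was at 23.3 and 37.1 TPM and at 13.5 and 8.88 TPM (difference -1.34, adjusted p = 0.131). Neither overlapped between genotypes, and both kept a lower value after removal of the trends (-1.66 for each). The feedback inhibitor Nkd1, at 2.66 and 1.60 TPM and at 3.56 and 9.10 TPM, went the other way without passing the test (difference 1.14). Ccnd1, which drives the cell cycle, was at 710 and 984 TPM in +/+ samples and at 723 and 111 TPM in Chd5-/- samples, so the low value was that of 1 culture. Ryk, Nkd1 and Ccnd1 were chosen after their values were seen.

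Some of these values carry a further uncertainty. Exons of 12 of the 50 genes, 10 of them tested, overlap those of another gene in the GENCODE annotation, nearly always on the opposite strand. Among them are Wnt5a, Wnt7b, Dvl1, Dvl2, Sfrp2, Ctnnb1 and Axin2. The libraries keep strand, but the strand setting used in counting is not given in the sources used here, so reads of such partners may be included.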

How the data were processed

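RNA-seq was read from 1 deposited table of TPM values for 4 samples, 2 +/+ and 2 Chd5-/-. Per the labels, libraries were made with a stranded mRNA kit, and the submitters' processing notes name Bowtie2 2.2.3, RSEM 1.2.20 and the mm10 build. The annotation and strand setting are not given in the sources used here. The deposited TPM values hold no read counts, so no count-based test was used and depth is unknown.

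limma 3.58.1 (R 4.3.3) was fitted to log2(TPM + 1) of the 12576 rows averaging 1 TPM or more, with genotype as the only term, an eBayes trend and two-sided p-values. The Benjamini-Hochberg adjustment covered all of these rows, and intervals are 95% intervals of the fit. GC content, length and coordinates are those of GENCODE M21 (GRCm38), found for 96.2% of the rows tested. GC and length trends were removed from each sample by loess (span 0.5), on 12103 rows. The statistical scripts were tested on simulated data. Further tools were Python 3.11.15, pandas 2.3.3, numpy 2.4.6 and, for figures, matplotlib 3.10.9.

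The genes named were those with an unadjusted p under 0.05, those without overlap and with a difference of 1 or more, the 3 most abundant of each role, and in each list of other pathway genes the smallest unadjusted p in each direction and the 5 largest differences beyond these. The genes, lists and rules were chosen with earlier results of these data known. The lists of other pathway genes and of cell type markers come from textbook knowledge. Alternatives were other pseudocounts (0.1 and 5), the minimum dropped or raised to 10 TPM, quantile normalization, scaling by median of ratios or by the total without the 20 most abundant rows, removal of the trends, a replicate block, robust or trend-free eBayes, identical rows kept once, and leaving out each sample.

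The replicate numbers were not used to pair samples, since each culture came from another newborn, and nothing in the labels ties the numbers together.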

Additional observations from a re-analysis of the deposited data

How the results depend on the processing

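Precision was limited by 2 cultures per genotype, by a wider spread between the Chd5-/- cultures, and by TPM, which hides depth. Of the 38 genes named by the rules given above, 25 kept the sign of their difference under each alternative run, Dkk3, Wnt5a, Lrp5, Fzd1 and Sfrp2 among them. Other genes described with a fit are not counted here. Among these, the difference of Axin2 turned to -0.14 with quantile normalization and to -0.34 with the trends removed. Of 669 values under alternatives, 49 had another sign, and 14 newly passed the adjusted threshold, all with a Chd5-/- culture left out. The cause of the changes below was not tested.

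Over all rows, 7 passed an adjusted p of 0.05. This became 4 with a pseudocount of 0.1, 0 with no minimum, 1 with quantile normalization, 3 with the trends in GC content and length removed, 0 with a replicate block, 0 with the block and the trends removed, and 0 to 1247 with 1 sample left out, of which 0 came from leaving out either +/+ sample, 1247 from leaving out Chd5-/- replicate 1 and 1086 from leaving out Chd5-/- replicate 2. Leaving out a sample leaves a genotype with 1 sample, which is then assumed to vary like the other genotype.

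For the Wnt pathway genes, the 10 higher at an unadjusted p under 0.05 became 5 with a minimum of 10 TPM, 6 with quantile normalization, 1 with the trends removed, 2 with the replicate block and the trends removed, and 4 to 13 with 1 sample left out. The 1 lower became 0 with no minimum, 3 with median-of-ratios scaling, 4 with quantile normalization, 3 with rescaling without the 20 most abundant rows, 4 with the trends removed, 3 with the block and the trends removed, and 0 to 4 with 1 sample left out. Their median difference of 0.34 turned to -0.17 with quantile normalization and to -0.20 with the trends removed, with or without the block, and was 0.20 to 0.48 with 1 sample left out.

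For the other pathway genes, the 17 higher became 7 with a minimum of 10 TPM, 5 with median-of-ratios scaling, 5 with quantile normalization, 10 with rescaling, 1 with the trends removed, 11 with the replicate block, 1 with the block and the trends removed, and 3 to 24 with 1 sample left out. The 4 lower became 2 with no minimum, 7 with median-of-ratios scaling and 1 to 6 with 1 sample left out. Their median of 0.33 turned to -0.0020 with median-of-ratios scaling, -0.073 with quantile normalization and -0.12 with the trends removed, with or without the block.

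Genes near 0 turned sign. With median-of-ratios scaling the difference was -0.23 for Ctnnb1, -0.24 for Gsk3b, -0.33 for Lrp6, -0.017 for Tcf7, -0.32 for Tcf7l2 and -0.30 for Wnt7a. Quantile normalization gave -0.17 for Ctnnb1, -0.26 for Lrp6, -0.27 for Sfrp4, -0.30 for Tcf7, -0.033 for Tcf7l1, -0.29 for Tcf7l2 and -0.48 for Wnt7a. Rescaling gave -0.10 for Ctnnb1, -0.11 for Gsk3b, -0.20 for Lrp6, -0.19 for Tcf7l2 and -0.18 for Wnt7a. With the trends removed, with or without the replicate block, it was -0.29 for Ctnnb1, -0.094 for Dvl1, -0.12 for Gsk3b, -0.21 for Lrp6, -0.34 for Tcf7, -0.35 for Tcf7l1, -0.19 for Tcf7l2 and -0.76 for Wnt7a. With 1 sample left out the range was -0.54 to 0.022 for Apc, -0.12 to 0.39 for Ctnnb1, -1.25 to 0.22 for Fzd3, -0.12 to 0.37 for Gsk3b, -0.64 to 0.53 for Lgr5, -0.14 to 0.20 for Lrp6, -1.11 to 1.64 for Tcf7, -0.31 to 0.39 for Tcf7l2, -0.54 to 0.61 for Wnt7a and -0.47 to 0.40 for Znrf3.

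The deviations of same-numbered samples from their genotype means correlated at -0.15 over all rows. With 2 samples per genotype, this cannot show whether the numbers pair cultures. A block with crossed numbers, added after the data were seen, gave 5 adjusted calls over all rows, 12 higher and 1 lower Wnt pathway gene, and 19 higher and 5 lower other pathway genes.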
